A study of Mus musculus with 37 samples.

Results

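The response of the mouse mammary gland to silicon ions was examined 4 weeks after exposure, in 3 arrays of the 30 cGy silicon (Si) group and 4 arrays of the sham group, 7 of the 37 arrays of the series. They were chosen by their titles, which name treatment, dose and week. All mice were female BALB/c (BALB/cJ) exposed at 10 weeks of age to 30 cGy of 350 MeV/amu Si ions or to a sham procedure, and their glands were taken at 14 weeks of age. In every group the inguinal gland of one side had been cleared and the intact one of the other side was measured, and the week 4 glands came from mice that had been carried back to their home facility. The study also held 100 cGy gamma and 10 cGy Si groups, and weeks 1 and 12, with 3 arrays in each further group, and it asks how sparsely and densely ionizing radiation change the gland over time. The labels give the replicates as separate samples and no more. Each p rests on the spread of samples within the 12 groups, pooled over all 37 arrays, and that spread may be technical.

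Silicon ions deposit their energy densely along their tracks and leave clustered DNA breaks that are hard to repair, whereas gamma rays ionize sparsely. A mammary gland is a tree of luminal and basal epithelium in a fat pad, and in the adult virgin mouse a small and cycling share of the epithelium divides in response to ovarian hormones. Dividing cells switch on replication genes through E2F factors at the start of S phase, and the genes of mitosis later, through promoter elements called CHR and CCAAT.

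Values are deposited log2 expression levels, and differences are log2 differences ± SE of 30 cGy Si minus sham from the limma model. Of the 18820 genes, 13174 were bright enough to be tested. Tissue markers were present in both groups: the luminal keratin Krt8 lay between 11.16 and 11.28 in the Si arrays and between 10.18 and 11.02 in the sham arrays, and the adipocyte hormone Adipoq between 11.03 and 11.58 against 11.24 to 11.88. Sham replicate 1 stood apart. Its median correlation with the other arrays of the series was 0.964, the lowest of the 37, and with the other 6 arrays used here 0.962, against 0.977 to 0.981 for those 6. For many of the values that leaving it out moved, the value without it is also given. In whole tissue, fewer cells of a type and less RNA per cell cannot be told apart.

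No gene differed between 30 cGy Si and sham after adjustment: limma called 0 of 13174 genes (0%), and the smallest adjusted p was 0.102. At an unadjusted p under 0.05, 804 genes (6.1%) were higher in the Si glands and 260 (1.97%) lower. In 816 genes (6.19%) every Si array lay above every sham array, and in 239 (1.81%) every one lay below. The median difference of all genes tested was 0.03, with 56.7% above 0. Without sham replicate 1 the counts at an unadjusted p under 0.05 were 528 (4.01%) higher and 327 (2.48%) lower, with 0 called. Every Si array then lay above the 3 remaining sham arrays in 1187 genes (9.01%) and below them in 675 (5.12%). The plot of all genes tested shows these differences with the cell cycle genes marked.

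**Figure D1:**
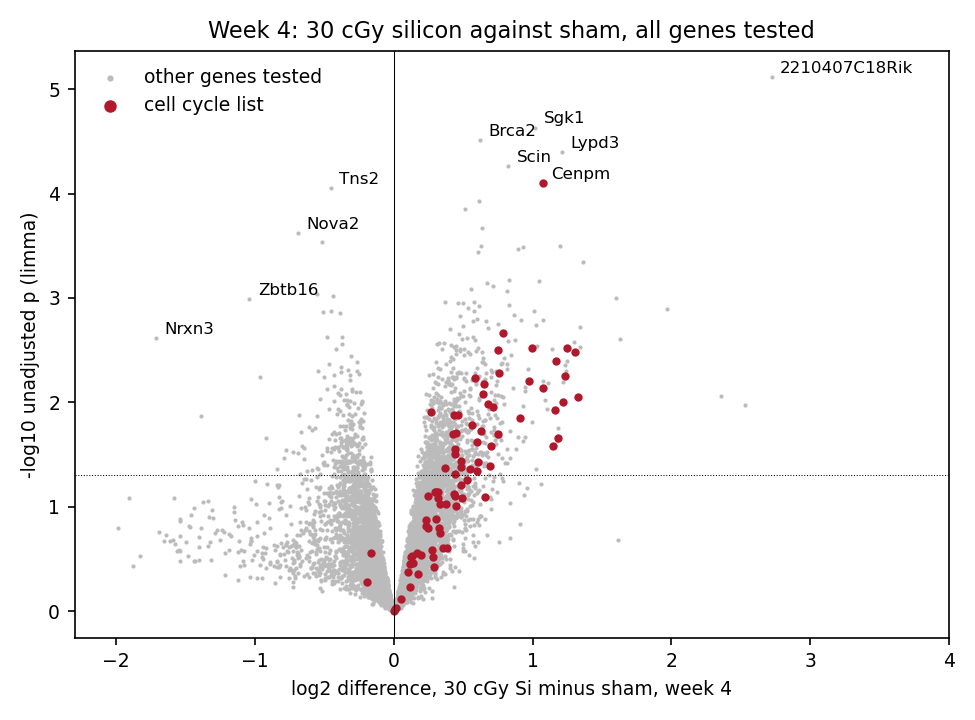
Each point is 1 of the 13174 genes tested, placed by its log2 difference, 30 cGy Si minus sham at week 4 (3 against 4 arrays), and by the −log10 of its unadjusted p from limma; red points are the 82 cell cycle genes and the dotted line marks the unadjusted threshold of 0.05. Of the red points, 79 lie right of 0 and 42 of those above the line, and no gene passed adjustment.

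Genes of cell division were mostly higher in the Si arrays than in sham. Of the 82 cell cycle genes tested, 79 were above 0, with a median of 0.44 beside 0.03 over all genes. At an unadjusted p under 0.05, 42 (51.2%) were higher and 0 lower, beside 6.1% and 1.97% of all genes, and in 42 every Si array lay above every sham array, beside 6.19%. None passed adjustment. Without sham replicate 1, 77 were above 0 with a median of 0.39, 24 were higher at an unadjusted p under 0.05, and 46 did not overlap, beside 4.01% and 9.01% of all genes. Without Si replicate 2 the count at that threshold was 20, beside 486 of all genes. The list held 126 entries, of which 112 were matched to a gene of the table, and 30 of those were too dim to be tested.

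The cyclins and mitotic kinases, which drive the cell through S phase and into mitosis, were all above 0 (15 of 15, median 0.43). At an unadjusted p under 0.05, 8 were higher, or 5 without sham replicate 1, beside 6.1% and 4.01% of all genes. Cdk1, the kinase that starts mitosis, stood at 6.48, 6.29 and 6.36 in the Si arrays, against 4.69, 5.0, 5.35 and 5.54 in the sham arrays. The difference was 1.23 ± 0.41, or 2.35-fold (adjusted p = 0.482), and the groups did not overlap. Aurkb, the kinase of the chromosomal passenger complex that checks chromosome attachment, read 6.74, 6.88 and 6.57 in Si, against 4.49, 5.47, 5.81 and 5.92 in sham, a difference of 1.31 ± 0.41 (adjusted p = 0.477). Ccna2, the cyclin of S and G2 phase, differed by 1.33 ± 0.47 and Ccnb2, a mitotic cyclin, by 1.22 ± 0.44. All 4 kinase and cyclin genes had every Si array above every sham array, but they were chosen for large differences. Of all 15 members of this role 8 did not overlap, beside 6.19% of all genes.

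Replication genes followed with 29 of 30 above 0 and a median of 0.41. Of these genes 12 were higher at an unadjusted p under 0.05, or 7 without sham replicate 1, beside 6.1% and 4.01% of all genes. Mcm6, a subunit of the helicase that opens DNA at origins, read 6.56, 7.0 and 6.18 in Si and 5.01, 5.27, 5.52 and 5.84 in sham (1.17 ± 0.37, adjusted p = 0.482). Rrm2, the subunit of ribonucleotide reductase made in S phase, differed by 1.16 ± 0.43, Tk1, the thymidine kinase of S phase, by 0.78 ± 0.23, and Chaf1b, which loads histones on new DNA, by 0.76 ± 0.25. Another probe set of Tk1 gave 0.47. Pcna, the sliding clamp of replication, overlapped between groups, with 8.96, 8.95 and 8.87 in Si, against 9.01, 8.53, 8.45 and 8.79 in sham (0.23 ± 0.16).

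The spindle and cytokinesis genes had the highest median of the roles, 0.68, with 15 of 15 above 0. Higher at an unadjusted p under 0.05 were 11, or 6 without sham replicate 1, beside 6.1% and 4.01% of all genes. Prc1, which bundles microtubules at the spindle midzone, read 5.41, 5.07 and 5.07 in Si and 3.81, 3.75, 4.08 and 4.12 in sham (1.25 ± 0.38, adjusted p = 0.477). The sham levels of 3.81 and 3.75 lie below log2 4.04, the mean level above which genes were tested, so the size of this difference is uncertain. A second, dimmer probe set of Prc1 (mean level 2.58) gave a difference of 0.001. Anln, a scaffold of the contractile ring, differed by 1.00 ± 0.31, and the spindle motor Kif11 by 0.91 ± 0.35. A dimmer probe set of Kif11 (mean level 2.77) gave 0.03. Every spindle gene named here had non-overlapping groups at the probe set used, but these genes were chosen for large differences. Of all 15 members of this role 11 did not overlap, beside 6.19% of all genes.

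Among the centromere and chromosome genes, 16 of 17 were above 0 with a median of 0.45. Higher at an unadjusted p under 0.05 were 9, or 4 without sham replicate 1, beside 6.1% and 4.01% of all genes. Cenpm, a protein of the inner kinetochore, kept the groups well apart, with 6.06, 5.93 and 6.05 in Si and 4.70, 4.97, 5.12 and 4.98 in sham, a difference of 1.07 ± 0.23, or 2.10-fold (adjusted p = 0.168). Mki67, the proliferation antigen Ki-67, stood at 6.41, 7.0 and 6.79 in Si, against 4.72, 5.85, 5.68 and 5.94 in sham (1.19 ± 0.49, adjusted p = 0.570). Top2a, which untangles sister chromosomes, had 5.85, 6.12 and 5.52 in Si and 3.67, 4.56, 4.96 and 5.52 in sham, where the lowest Si and highest sham array met (1.15 ± 0.49). The sham level of 3.67 also lies below log2 4.04. Dimmer probe sets of Top2a (mean levels 2.43 and 2.52) gave 0.01 and 0.09. The genes of mitotic exit, which destroy cyclins, were few and closest to the background, with 4 of 5 above 0 and a median of 0.17. Without sham replicate 1, 3 of 5 were above 0 with a median of 0.09. Cdc20, the activator of the anaphase-promoting complex, was at 0.56 ± 0.22.

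Promoters of the cell cycle list were searched for the CHR word TTTGAA, the CCAAT word, and the E2F-type words GCGGGAA or GCGCGAA or GCGCCAA, on both strands, in the RefSeq window of 250 bases before to 50 bases after the start (build GRCm38.p6). A promoter was found for 73 of the 82 genes. TTTGAA was in 47.9% of them, beside 11.9% of the 10392 promoters found for all genes tested, CCAAT in 64.4% beside 38%, and an E2F-type word in 39.7% beside 14%. TTTGAA and CCAAT together were in 35.6%, beside 4.86%. The list holds known cell cycle genes, so these shares describe the list and not the Si difference. Of the 42 higher at an unadjusted p under 0.05, a promoter was found for 38. There TTTGAA was in 52.6% and both words were in 39.5%, near the shares of the whole list. E2F-type words that overlap each other, as in Mcm6, were counted once per promoter. The 4 promoters below belong to some of the genes named above with large differences, from 3 roles, and are examples of how the words sit near the start. The capitals mark the words, written 5′ to 3′ on the strand of the gene.
Prc1 (chr7:80294201-80294500, plus strand): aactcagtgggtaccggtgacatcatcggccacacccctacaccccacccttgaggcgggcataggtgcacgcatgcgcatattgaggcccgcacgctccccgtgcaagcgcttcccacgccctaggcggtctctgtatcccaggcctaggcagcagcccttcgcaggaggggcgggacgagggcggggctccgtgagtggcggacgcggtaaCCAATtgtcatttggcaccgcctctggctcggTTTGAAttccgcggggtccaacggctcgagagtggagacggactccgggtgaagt
Cdk1 (chr10:69352863-69353162, minus strand): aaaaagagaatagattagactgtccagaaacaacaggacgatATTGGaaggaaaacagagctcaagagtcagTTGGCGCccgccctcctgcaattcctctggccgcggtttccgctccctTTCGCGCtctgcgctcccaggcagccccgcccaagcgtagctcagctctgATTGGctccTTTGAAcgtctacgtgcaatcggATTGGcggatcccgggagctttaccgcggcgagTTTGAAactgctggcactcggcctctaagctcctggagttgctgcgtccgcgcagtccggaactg
Ccnb2 (chr9:70421505-70421804, minus strand): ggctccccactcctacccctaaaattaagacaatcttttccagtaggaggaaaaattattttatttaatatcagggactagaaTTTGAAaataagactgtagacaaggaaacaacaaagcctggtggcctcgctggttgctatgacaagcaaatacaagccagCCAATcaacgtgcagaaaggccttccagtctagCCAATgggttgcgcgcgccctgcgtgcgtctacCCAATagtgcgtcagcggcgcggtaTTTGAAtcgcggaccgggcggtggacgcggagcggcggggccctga
Mcm6 (chr1:128359656-128359955, minus strand): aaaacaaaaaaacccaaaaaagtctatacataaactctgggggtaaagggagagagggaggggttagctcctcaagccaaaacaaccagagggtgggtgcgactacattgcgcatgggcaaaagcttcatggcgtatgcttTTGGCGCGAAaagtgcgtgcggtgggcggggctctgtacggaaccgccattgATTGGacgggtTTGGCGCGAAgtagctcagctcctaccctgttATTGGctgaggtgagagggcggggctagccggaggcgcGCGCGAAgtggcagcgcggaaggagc

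In the promoter of Prc1 the TTTGAA begins 5 bases before the start and the CCAAT 37 bases before it. The Cdk1 promoter holds TTTGAA at −71 and −15, among CCAAT words read on the other strand (ATTGG) at −208, −80 and −48. It also holds 2 E2F-type words, at −178 and −130. In Ccnb2 3 CCAAT words at −87, −54 and −21 lead up to a TTTGAA at 5, and another TTTGAA stands at −167. Mcm6, a replication gene, has no TTTGAA in the window but E2F-type words at −109, −106, −46, −43 and 25. The promoter of Rrm2, another replication gene, is not printed. It holds a CCAAT word at −50, and neither TTTGAA nor an E2F-type word. That of Mki67, also not printed, holds TTTGAA at −116 and −98, CCAAT words and an E2F-type word at −67. A word is a match of letters and does not show that a factor binds there.

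The list level of an array, for which each member is first centred on its average over the 37 arrays and the members are then averaged, places the cell cycle result among all groups of the study. It was 0.32, 0.47 and 0.29 in the 30 cGy Si arrays of week 4, against −0.38, −0.18, −0.07 and 0.04 in the sham arrays. The mean over the Si group, 0.36 ± 0.10 (SD, n = 3), was the highest of the 12 groups, and the others lay between −0.15 and 0.14. The lowest was the sham group of week 4 itself, at −0.15, or −0.07 without its replicate 1. Of the other 34 arrays, 4 exceeded the lowest of these Si arrays and all 4 were of week 12, where the sham arrays alone spread from −0.23 to 0.66. The plot of the cell cycle level by week and by treatment shows this spread.

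**Figure D2:**
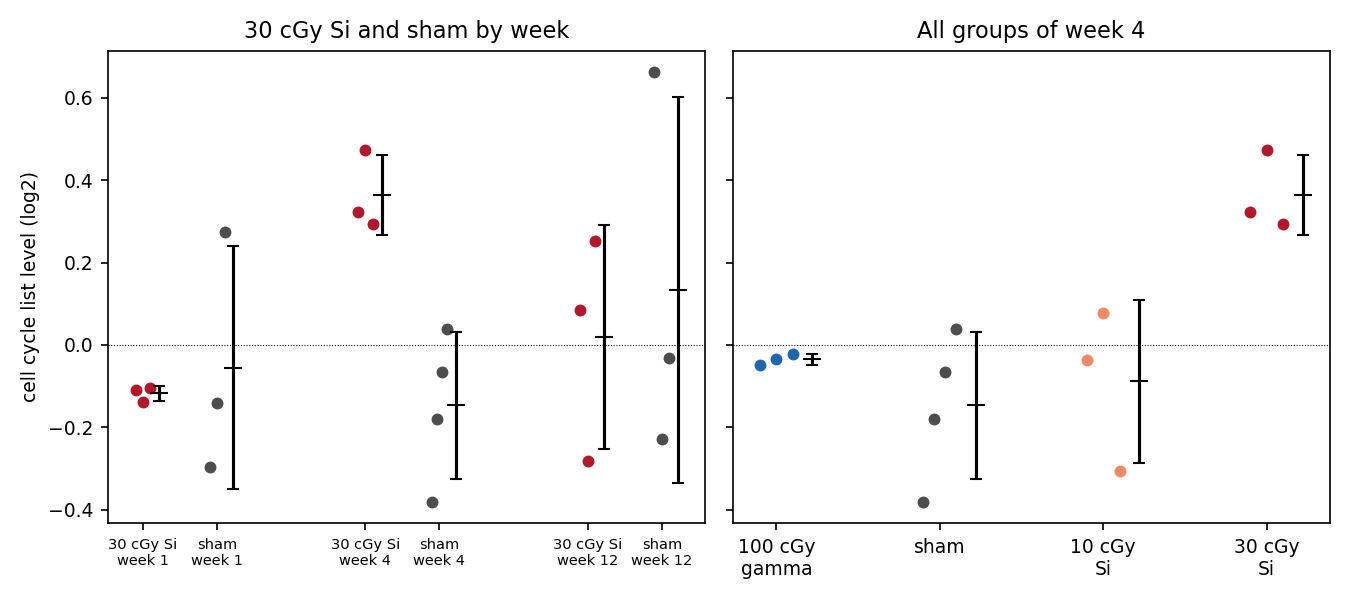
Left, the cell cycle list level (log2, mean deviation from each gene's mean over 37 arrays) of 30 cGy Si and sham arrays at weeks 1, 4 and 12; right, all groups of week 4, with 100 cGy gamma at the left and then sham, 10 and 30 cGy Si. Points are arrays and bars are mean ± SD; the 3 Si arrays of week 4 lie between 0.29 and 0.47, above every other array of that week.

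The design allows direct tests of whether this differs between weeks and treatments. At week 1 the median cell cycle difference from sham was −0.07, with 29 of 82 genes above 0, and at week 12 it was −0.10, with 20 above 0. The difference of the Si effect, week 4 minus week 1, had a median of 0.53 and 25 cell cycle genes higher at an unadjusted p under 0.05, where 4.16% of all genes were higher and 4.4% lower. Week 4 minus week 12 gave a median of 0.56 and 26 genes, where 3.39% of all genes were higher and 1.59% lower. In both, limma called 0 genes (0%), from 1128 and 657 genes at an unadjusted p under 0.05. For Mki67 the difference from sham was larger at week 4 than at week 1 by 1.20, and larger than at week 12 by 1.53.

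Within week 4, 30 cGy Si was also set directly against the other irradiations. Against 10 cGy Si, 81 of 82 cell cycle genes were above 0 with a median of 0.40, and 26 were higher at an unadjusted p under 0.05, where 2.02% of all genes were higher and 1.5% lower. Against 100 cGy gamma, 74 were above 0 with a median of 0.40, and 25 were higher and 2 lower, where 3.95% of all genes were higher and 4.04% lower. The comparisons of each irradiation with sham share the sham arrays, so their values are only set side by side: the cell cycle median was 0.03 for 10 cGy Si, 0.44 for 30 cGy Si and 0.13 for 100 cGy gamma.

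Repair genes showed smaller values. Of the 23 homologous recombination and Fanconi genes, which mend double-strand breaks from a sister copy, 19 were above 0 with a median of 0.20, and 5 (21.7%) were higher and 0 lower at an unadjusted p under 0.05, beside 6.1% and 1.97% of all genes. Brca2, a breast tumour suppressor needed for this repair, stood at 5.95, 6.03 and 5.73 in Si, against 5.06, 5.48, 5.32 and 5.26 in sham, with no overlap, a difference of 0.62 ± 0.13 (adjusted p = 0.132). The motor protein gene Rad54l differed by 0.67 ± 0.18, the Brca1 partner Bard1 by 0.36 ± 0.15 and Xrcc3 by 0.33 ± 0.16. Dimmer probe sets of Bard1 gave −0.19 and 0.69. Without sham replicate 1 the list median was 0.08 and 3 of the 23 genes were higher, beside 4.01% of all genes. Of 22 genes of end joining and damage signalling, 15 were above 0 with a median of 0.05, or 0.02 without sham replicate 1. In that list 1 gene (4.55%) was higher at an unadjusted p under 0.05, beside 6.1% of all genes. It was the checkpoint kinase gene Chek1, which is also made in S phase (0.79 ± 0.28).

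Targets of p53, the factor that DNA damage activates, lay on both sides. Of 31 tested, 19 were above 0 with a median of 0.07, and 2 were higher and 4 lower at an unadjusted p under 0.05, beside 6.1% and 1.97% of all genes. Without sham replicate 1 the median was 0.03, with 0 higher and 2 lower, beside 4.01% and 2.48% of all genes. Cdkn1a, the inhibitor p21, had 8.73, 8.62 and 9.24 in Si and 7.52, 8.91, 9.21 and 8.30 in sham, which overlap (0.38 ± 0.29, and 0.06 without sham replicate 1). Ccng1, a cyclin that p53 induces, was at 10.17, 10.27 and 10.09 in Si, against 10.61, 10.44, 10.90 and 10.35 in sham, below it in every array (−0.40 ± 0.14, adjusted p = 0.503). Rrm2b, the p53-dependent reductase subunit, differed by −0.39 ± 0.16. Mdm2, the ligase that marks p53 for decay, differed by −0.03 ± 0.10, or −0.08 without sham replicate 1, the death receptor gene Eda2r by −0.17 ± 0.20 and Phlda3, an Akt inhibitor, by −0.04 ± 0.28. Phlda3 turned to 0.34 without sham replicate 1, and Perp, a junction protein and p53 target, was at 0.73 ± 0.27.

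Epithelial markers were higher in the Si arrays than in sham, and more so with sham replicate 1. Of 34 luminal genes 32 were above 0 with a median of 0.35, and 5 (14.7%) were higher at an unadjusted p under 0.05, beside 6.1% of all genes. Of 24 basal genes 22 were above 0 with a median of 0.33, and 9 (37.5%) were higher. Without sham replicate 1 the medians were 0.25 and 0.17, with 0 luminal genes and 1 basal gene at that threshold, beside 4.01% of all genes. Sham replicate 1 had a basal level of −0.76, and the other 3 sham arrays lay between −0.01 and 0.03, close to the 0.08 to 0.24 of the Si arrays. Its luminal level was −0.52, against −0.13 to −0.01 in the other sham arrays.

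Single epithelial genes showed the same order. Krt5, the keratin of basal cells, read 8.16, 8.46 and 8.14 in Si and 6.74, 7.90, 7.83 and 7.63 in sham (0.73 ± 0.30, and 0.47 without sham replicate 1), and Krt14, its partner, differed by 0.59 ± 0.26. The adhesion molecule Epcam differed by 0.54 ± 0.26, or 0.35 without that array, the tight junction gene Cldn3 by 0.57 ± 0.24 and the epithelial splicing factor Esrp1 by 0.68 ± 0.30. Against 100 cGy gamma the luminal and basal medians of 30 cGy Si were 0.01 and 0.004, where the cell cycle median was 0.40. Set beside one another, the luminal medians against the shared sham arrays were 0.20 for 10 cGy Si, 0.35 for 30 cGy Si and 0.36 for gamma, and the basal ones 0.15, 0.33 and 0.43. With the luminal level as a covariate, the cell cycle median against sham was 0.48 and 41 genes were higher at an unadjusted p under 0.05. With lymphocyte, muscle and brown adipocyte levels as covariates the cell cycle median was 0.43, with 36 cell cycle genes higher, beside 548 of all genes. Whether the mix of tissues has a part in the cell cycle difference was not tested.

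Ovarian hormone receptors and targets, through which estrogen and progesterone drive division, had 19 of 22 members above 0 and a median of 0.33, or 0.28 without sham replicate 1. At an unadjusted p under 0.05, 5 (22.7%) were higher, beside 6.1% of all genes, and 3 without that array, beside 4.01%. The receptors themselves overlapped between groups: Esr1, the estrogen receptor, differed by 0.21 ± 0.14 and Pgr, the progesterone receptor, by 0.33 ± 0.35. Both leaned on 1 array, since Esr1 was at 0.05 without Si replicate 2 and Pgr at 0.06 without sham replicate 1. Wnt4, a paracrine signal downstream of progesterone, was at 0.33 ± 0.26 and Tnfsf11, the progesterone-induced RANK ligand, at −0.25 ± 0.28, or −0.13 without sham replicate 1. Ccnd1, the cyclin that opens the cell cycle, read 9.45, 9.60 and 8.87 in Si and 7.87, 8.77, 8.73 and 8.61 in sham (0.81 ± 0.26, adjusted p = 0.482), with no overlap. Adamts18, a secreted matrix protease known from the basal (myoepithelial) cells, had 6.26, 6.27 and 5.92 in Si and 4.38, 5.15, 5.76 and 4.87 in sham (1.11 ± 0.38). Id4, a regulator of basal cell growth, was at 1.22 ± 0.41 and at 0.78 without sham replicate 1. Myc, a growth-promoting transcription factor, differed by 0.71 ± 0.23, and by 0.44 without that array.

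**Figure D3:**
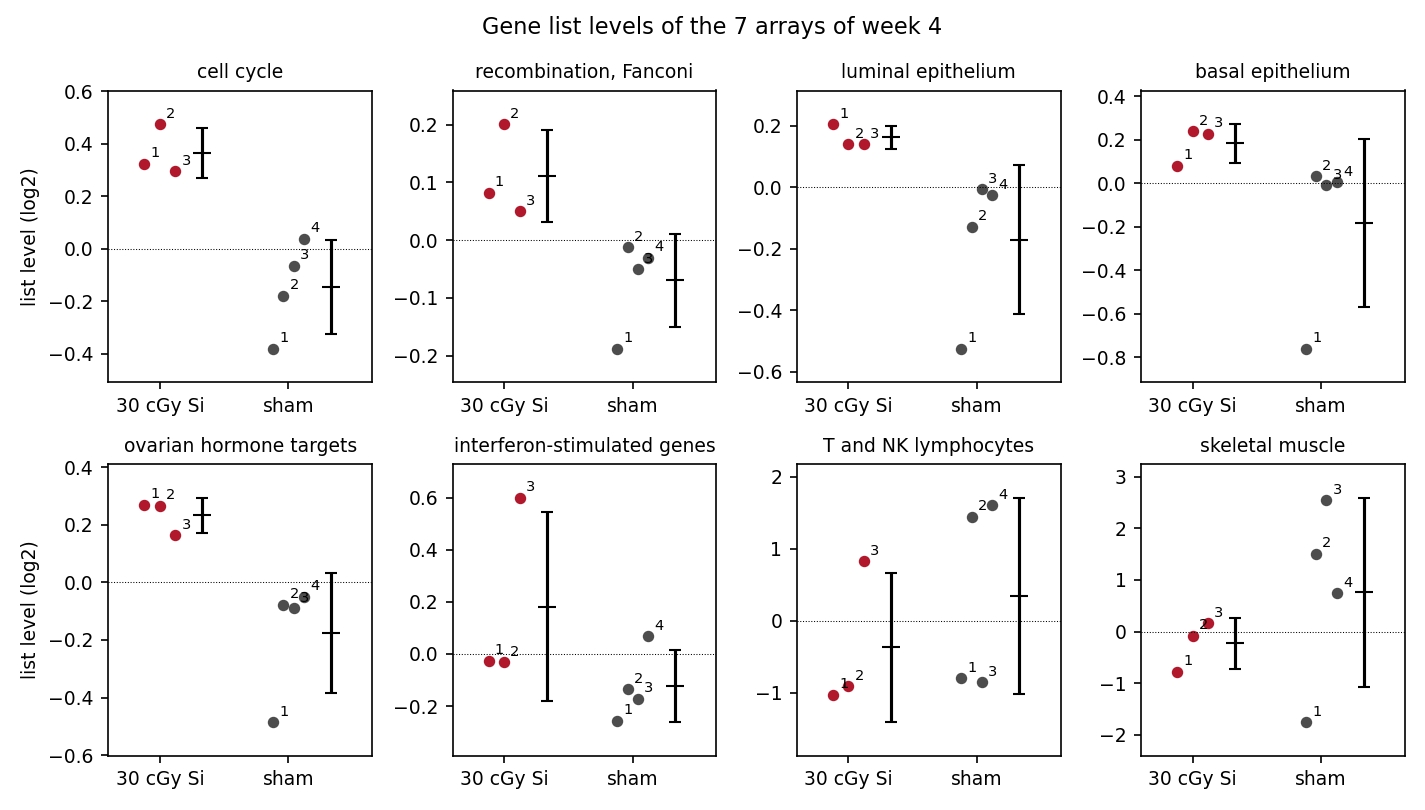
List levels (log2, relative to the average of the 37 arrays) of 8 gene lists in the 3 arrays of 30 cGy Si and the 4 sham arrays of week 4. Numbers are replicates and bars mean ± SD; Si lies above sham without overlap in the cell cycle, recombination, luminal, basal and hormone panels, sham replicate 1 is lowest in those 5, and lymphocyte levels split the arrays within both groups.

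Lists of other tissues varied between arrays within both groups. T and NK lymphocytes had list levels of −1.03, −0.91 and 0.82 in Si, against −0.80, 1.45, −0.86 and 1.61 in sham. The list of B lymphocytes and plasma cells split the same arrays. Cd3g, which signals for the T cell receptor, ranged from 3.81 to 8.08 in Si and from 4.87 to 9.28 in sham. Skeletal muscle levels were −0.77, −0.08 and 0.17 in Si and −1.75, 1.51, 2.54 and 0.75 in sham, with a median difference of −1.15 over 31 genes, 0 of which were at an unadjusted p under 0.05. That median was −2.38 without sham replicate 1, with 7 genes lower at that threshold, beside 2.48% of all genes in the same fit. Without sham replicate 3 the muscle median was −0.40. The 25 macrophage genes had a median of 0.15, or 0.01 without sham replicate 1, and the 22 white adipocyte genes −0.12, or −0.01 without it.

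Interferon-stimulated genes, the antiviral program, had 29 of 30 members above 0 and a median of 0.31, with 8 (26.7%) higher at an unadjusted p under 0.05, beside 6.1% of all genes. With sham replicate 1 left out, 5 were higher, beside 4.01%. The median was 0.08 without Si replicate 3. The list level was −0.03, −0.03 and 0.60 in Si, against −0.26, −0.14, −0.17 and 0.07 in sham. Si replicate 3, the highest, was also the Si array with the T and NK lymphocytes level of 0.82, whose part in this was not tested. Rsad2, an antiviral enzyme, did separate the groups, with 6.64, 6.27 and 6.44 in Si, against 5.92, 6.10, 5.60 and 5.72 in sham (0.61 ± 0.22). Ifit3 followed replicate 3, with 6.84, 6.65 and 8.02 in Si and 6.94, 6.42, 6.46 and 6.82 in sham. The shift of the list was not particular to 30 cGy Si at week 4. Against the shared sham arrays of week 4, the list medians were 0.41 for 10 cGy Si and 0.02 for gamma. Set directly against 10 cGy Si, 30 cGy Si had a median of −0.04, and against gamma 0.26. At weeks 1 and 12 the medians of 30 cGy Si against sham were 0.05 and 0.43.

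Immediate early and glucocorticoid genes, which respond within hours to handling and hormones, were mixed. Egr2, a growth-induced zinc finger factor, read 8.29, 8.20 and 8.25 in Si and 5.46, 6.81, 7.28 and 6.90 in sham (1.63 ± 0.49, and 1.25 without sham replicate 1), but the list's median of 0.22 over 28 genes was 0.02 without that array. In the glucocorticoid list of 25, 5 genes were higher and 2 lower at an unadjusted p under 0.05, beside 6.1% and 1.97% of all genes, with a median of 0.11. With sham replicate 1 left out, 2 were higher and 1 lower, beside 4.01% and 2.48% of all genes. Per2, a clock gene, was at −0.68 ± 0.26 and its opposite-phase partner Arntl at 0.72 ± 0.29, which were −0.35 and 0.27 without sham replicate 1. The whole set of 35 lists is shown in the plot of list medians.

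**Figure D4:**
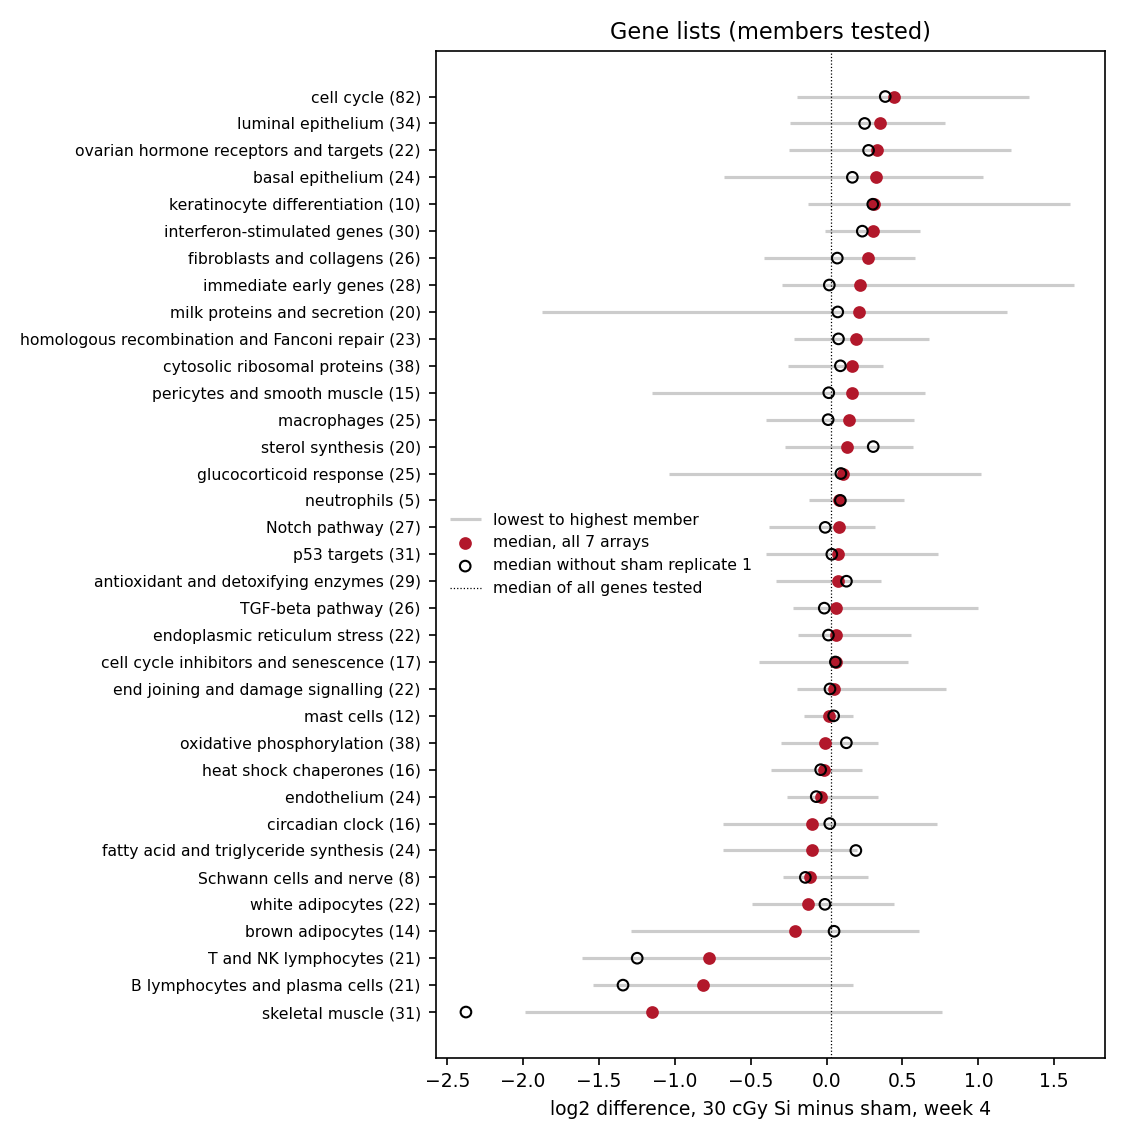
For each of the 35 gene lists (number of members tested in brackets), the red point is the median log2 difference, 30 cGy Si minus sham at week 4, the open circle the same without sham replicate 1, and the grey line the range of members; the dotted line is the median of all genes, 0.03. The cell cycle median is 0.44, and 0.39 without that array, and the medians of skeletal muscle and lymphocytes lie furthest to the left.

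Among single genes, the smallest unadjusted p values on the higher side belonged to 2210407C18Rik, Sgk1 and Brca2. Sgk1, a kinase that steroid hormones induce and that regulates sodium transport and survival, stood at 8.24, 8.36 and 8.20 in Si, against 6.97, 7.24, 7.37 and 7.40 in sham. The difference was 1.02 ± 0.20, or 2.03-fold (adjusted p = 0.132), and 0.93 without sham replicate 1. At weeks 1 and 12 Sgk1 differed from sham by −0.15 and −0.03, and 1 of the other 34 arrays exceeded the lowest of these Si arrays. Lypd3, a surface protein of stratified epithelium, read 6.31, 6.39 and 6.10 in Si and 4.67, 5.02, 5.50 and 5.05 in sham (1.21 ± 0.25, adjusted p = 0.132). With the keratinocyte gene Sprr2a1, a cornified envelope protein at 1.6 ± 0.44, it made up the 2 of 10 keratinocyte genes (20%) higher at an unadjusted p under 0.05. Of all genes 6.1% were. Without Si replicate 3 the median of this list fell from 0.31 to 0.08, and Sprr2a1 was at 1.20.

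Scin, which severs actin filaments, read 5.38, 5.33 and 6.13 in Si and 4.60, 4.91, 4.66 and 4.96 in sham (0.83 ± 0.17, adjusted p = 0.145). None of the other 34 arrays reached the lowest of these 3 Si arrays. Reg3g, an antibacterial lectin, differed by 1.20 ± 0.29 and was highest in Si replicate 3, at 6.43 against 4.58 and 5.19 in the other Si arrays. Further genes of small p on this side included the membrane protein gene Tmem51 (0.62 ± 0.14), the acyl-CoA synthetase gene Acsbg1 (0.93 ± 0.23), the spindle orientation gene Gpsm2 (0.63 ± 0.15), the fatty acid transport gene Slc27a6 (1.05 ± 0.28) and Cdca7, an E2F and Myc target (0.83 ± 0.22).

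On the lower side, Tns2, a tensin of focal adhesions, read 8.55, 8.51 and 8.34 in Si and 9.01, 8.84, 8.96 and 8.87 in sham (−0.46 ± 0.10, adjusted p = 0.168), with no overlap. Nova2, a splicing factor best known from neurons, differed by −0.69 ± 0.16, the protease gene Pcsk6 by −0.52 ± 0.13 and the lipid droplet gene Plin4 by −0.38 ± 0.11. Timp3, an inhibitor of metalloproteases, was at −0.42 ± 0.13 and the desaturase gene Scd1 at −0.33 ± 0.11. Nrxn3, a neuronal adhesion receptor, had 5.78, 4.78 and 6.47 in Si and 7.75, 7.47, 7.06 and 7.31 in sham (−1.72 ± 0.52). Over all genes tested, 43 were higher by more than 1 and 75 lower by more than 1. Of these, 38 of the higher and 3 of the lower, Nrxn3 among them, had no overlap between the groups.

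**Figure D5:**
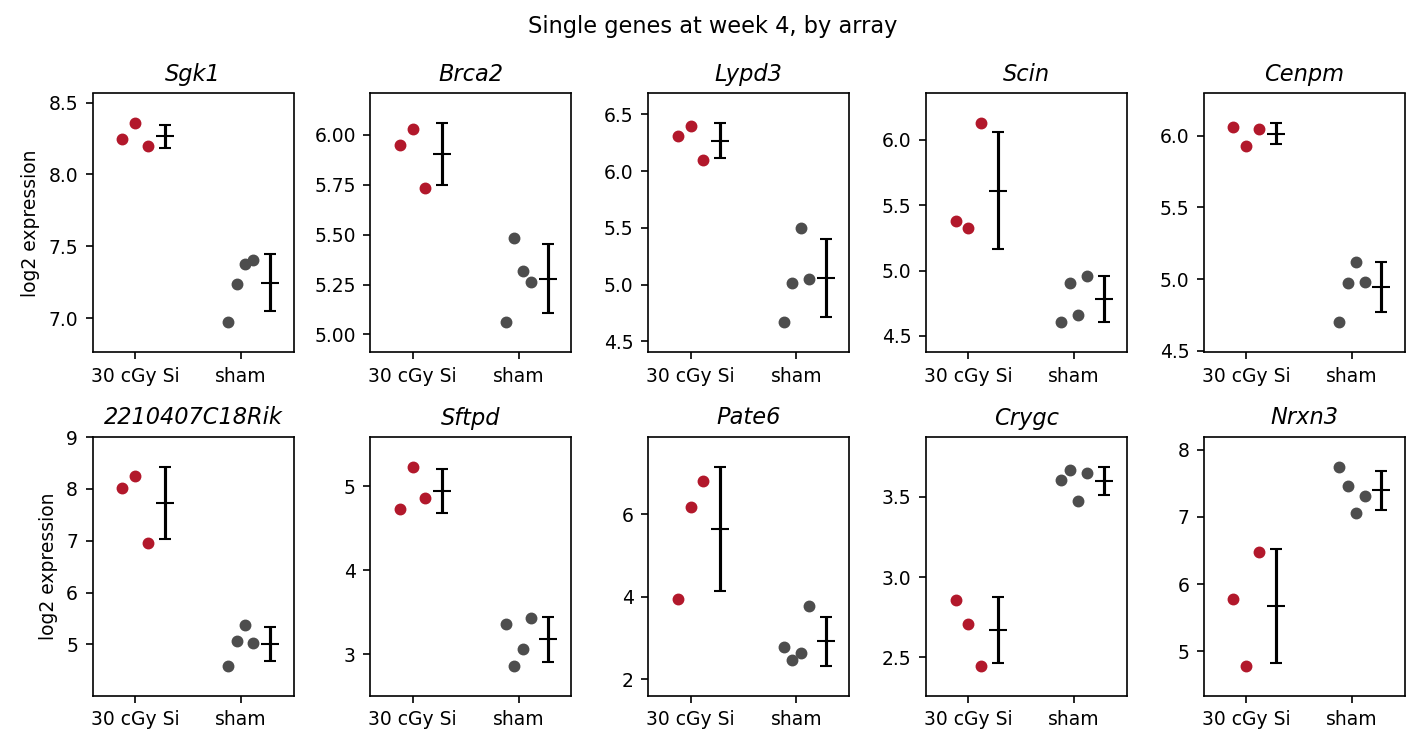
Log2 expression of 10 genes in the 3 arrays of 30 cGy Si (red, left) and the 4 sham arrays (grey, right) of week 4, with mean ± SD; each panel has its own axis. In 8 panels every Si array lies above every sham array, and in Crygc and Nrxn3 every one lies below.

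Without the filter on dim genes, in a fit of all 18820 genes, limma called 4 genes. Sftpd, surfactant protein D, a collectin of mucosal defence, read 4.74, 5.23 and 4.87 in Si, against 3.36, 2.86, 3.06 and 3.42 in sham. It rose by 1.77 ± 0.28 (adjusted p = 0.00746), and in the same fit also against 10 cGy Si (1.75 ± 0.30, adjusted p = 0.0268) and 100 cGy gamma (1.75 ± 0.30, adjusted p = 0.0262). Of the other 34 arrays, 1 exceeded the lowest Si value, at 4.85. The sham levels of Sftpd and of Pate6, another of the 4, lie below the filter's 4.04, near the bottom of the scale, so the sizes of these differences are uncertain. The call was lost without Si replicate 2 (adjusted p = 0.169) and without sham replicate 2 (adjusted p = 0.0670).

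The gene 2210407C18Rik, which has no described role here, was the brightest of the 4 and passed the filter, with 8.01, 8.24 and 6.95 in Si and 4.58, 5.06, 5.37 and 5.02 in sham (2.73 ± 0.50, or 6.61-fold). The 10 cGy Si arrays averaged 6.27 and the gamma arrays 5.33. Its adjusted p was 0.0295 without the filter and 0.102 with it. Pate6, of a family best known from the male tract, read 3.95, 6.18 and 6.80 in Si and 2.79, 2.47, 2.63 and 3.79 in sham (2.72 ± 0.48, adjusted p = 0.0273), and 1 of 3 arrays of 10 cGy Si was at 5.02. Crygc, a lens crystallin, fell by 0.93 ± 0.14 (adjusted p = 0.00283), with 2.85, 2.71 and 2.45 in Si and 3.61, 3.67, 3.47 and 3.65 in sham. All these Crygc levels lie near the bottom of the scale, below the filter's 4.04, and its sham arrays of week 4 averaged higher than any other group, so that 10 cGy Si and gamma also lay below them, at −0.46 and −0.57. Leaving out each of the 7 arrays in turn, Crygc stayed called in 7 of 7 fits, Sftpd in 5, Pate6 in 2 and 2210407C18Rik in 1.

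The direct comparisons with the other irradiations of week 4 called few genes. Against 10 cGy Si, 2 of 13174 genes (0.0152%) were called, both lower. Fyb2, an adapter protein of lymphocyte signalling, read 3.68, 3.33 and 4.32 at 30 cGy and 5.08, 5.05 and 4.92 at 10 cGy, and fell by 1.24 ± 0.19 (adjusted p = 0.00791). Every 10 cGy array also lay above the sham arrays, which ranged from 3.9 to 4.39. Zbtb16, the zinc finger factor PLZF, which glucocorticoids induce, read 8.43, 7.29 and 7.41 at 30 cGy and 9.23, 9.42 and 9.51 at 10 cGy, and fell by 1.68 ± 0.30 (adjusted p = 0.0410). Sham arrays spread from 8.05 to 9.63. Leaving out 1 array at a time, Fyb2 kept its call without Si 30 cGy replicate 3 or 10 cGy replicate 3 and lost it without any of the other 4 (lowest lost adjusted p = 0.0635), and Zbtb16 kept it only without 30 cGy replicate 1.

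Against 100 cGy gamma, 1 of 13174 genes (0.00759%) was called. Scin rose to 5.38, 5.33 and 6.13 in Si, against 4.53, 4.40 and 4.58 in gamma, by 1.11 ± 0.19 (adjusted p = 0.0274). It kept its call without Si replicate 1 or 2 and lost it without Si replicate 3 (0.85, adjusted p = 0.310) or any one gamma array (adjusted p = 0.126 to 0.321). In a fit of only the 2 groups compared, none of Fyb2, Zbtb16 and Scin was called.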

How the data were processed

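Total RNA of intact mammary glands was hybridised to Affymetrix arrays. The authors deposited log2 expression values which, per the submitters' processing notes, came from RMA in oligo; versions are not given in the sources used here. They were used as deposited: 35556 probe sets and 37 arrays, with array medians of 5.04 to 5.25. Gene symbols came from GEO's annotation of the platform. Probe sets with several symbols (1881) or not listed (12457) were left out, and of several probe sets of a gene the brightest was used, which gave 18820 genes. Genes with a mean above the 30th percentile (log2 4.04) were tested.

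A limma model (version 3.58.1, R 4.3.3) with a mean for each of 12 groups was fitted to all 37 arrays, with 25 residual and 3.4 prior degrees of freedom. Tests are two-sided, adjusted by Benjamini-Hochberg over all genes, and called at an adjusted p under 0.05; all adjusted p values are limma's. Lists are described by counts and medians, with no test. Promoters come from RefSeq (GRCm38.p6). The number of arrays limits the precision.

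The comparison, its gene lists (1033 entries in 35 lists, 945 matched, 849 tested) and the rules were chosen with earlier results of these data known. Named were the 15 genes per direction with the smallest p, up to 4 members per list and role with the largest difference, genes called without the filter or in the other contrasts, and a set of markers; not every such gene is printed. Predicted genes were passed over, except 2210407C18Rik, which is called without the filter. The fit was repeated unfiltered, with the cut-off for dim genes moved to the 50th percentile, with probe sets averaged, and with quantile normalization, trend and robust settings, array weights, a replicate block, only the groups compared, 2 sets of covariates for the mix of tissues, and with each array left out in turn.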

Additional observations from a re-analysis of the deposited data

Results flagged for a closer look

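Each list level and named gene gave a set of 4 sham values at week 4, and 11 of the 149 sets held a value far from the other 3, by Dixon's test. Chance gives this in about 1 in 20. In all 11 the array was sham week 4 replicate 1. Gene lists stood apart there: the basal epithelium level was −0.760, against −0.01 to 0.03 in the other sham arrays, the ovarian hormone level −0.485 against −0.09 to −0.05, the immediate early level −0.807 against −0.16 to −0.04, the TGF-beta level −0.396 against −0.04 to 0.02, and the sterol synthesis level 0.284 against −0.36 to −0.29. The other 6 were single genes. Acta2, smooth muscle actin of basal cells and vessels, was at 9.74 against 10.93 to 11.03, Sfn, an epithelial 14-3-3 protein, at 4.88 against 6.24 to 6.51, and Id4 at 4.82 against 6.43 to 6.76. Ddit4, a stress-induced inhibitor of mTOR, was at 6.11 against 7.54 to 7.59. Higher there than in the other sham arrays were Phlda3, at 9.78 against 8.15 to 8.34, and the sterol enzyme gene Sqle, at 6.93 against 6.07 to 6.21.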

How the results depend on the processing

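Over 111 named genes, 1826 of 1845 values under the alternatives kept their sign and their side of the threshold. Genes called against sham numbered 4 without the filter, 6 with array weights (Sgk1, Brca2, Lypd3, Tmem51, Agxt2 and 2210407C18Rik, adjusted p 0.0143 to 0.0402) and 0 in the other alternatives, each array left out included. The count of lower genes at an unadjusted p under 0.05 was 848 with array weights and 148 with only the groups compared. With the 50th percentile filter, which kept 26 of the cell cycle genes, 8 were higher and their median was 0.282, below the medians of 5 other lists (keratinocyte 0.399, ovarian hormone 0.384 and luminal 0.372 among them). It was also below the keratinocyte median without Si replicate 1 and the interferon median without Si replicate 2. Without the filter, 1 gene was called for week 4 minus week 1 (Crygc) and 2 against gamma (Scin and Sftpd). With only the groups compared, 0 were called against 10 cGy Si and 0 against gamma, and with the luminal covariate 1 against 10 cGy Si. No pairing by replicate number was seen (correlations of same-numbered deviations 0.27, −0.40 and −0.32). Samples of different numbers spread from −0.41 to 0.55, so these few values cannot exclude a pairing. With the replicate block, 0 genes were called against sham, 397 were lower at an unadjusted p under 0.05, and 1 was called for week 4 minus week 1, 1 against 10 cGy Si (Zbtb16 was lost, adjusted p = 0.0666) and 2 against gamma. Each array left out in turn gave 486 to 1193 genes higher and 134 to 407 lower at an unadjusted p under 0.05 (fewest of both without Si replicate 2). It gave 20 to 48 cell cycle genes higher, with a median of 0.387 to 0.501, and calls of 0 to 0 against sham, 0 to 1 for week 4 minus week 1, 0 to 0 for week 4 minus week 12, 0 to 2 against 10 cGy Si and 0 to 2 against gamma. Small differences turned sign. Phlda3 was at 0.245 with array weights, 0.151 with lymphocyte, muscle and brown adipocyte covariates and 0.202 with the luminal one, and at −0.202 to 0.342 with an array left out, where Mdm2 ranged from −0.127 to 0.0434. With the same covariates Krt18 was at −0.123 and −0.109, and Pgr at −0.0668 and −0.0694. The cause of these changes was not tested. The unfiltered fits that each leave out 1 array were chosen after seeing the data.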

Other observations

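Of the 41 genes that differed by more than 1 with no overlap between the groups, 10 were cell cycle genes and 23 were in no list. Of the 13174 genes tested, 82 were in the cell cycle list, and the 35 lists held 849 tested entries. The 41 genes were chosen after their values were seen, and none was called. Tph1, the enzyme that starts serotonin synthesis outside the brain, read 8.10, 8.47 and 9.06 in 30 cGy Si and 4.97, 6.17, 5.77 and 7.14 in sham (2.53 ± 0.93). Ido1, which breaks down the same amino acid, tryptophan, into the kynurenine pathway, read 8.94, 9.42 and 10.70 in Si and 5.59, 7.16, 7.94 and 8.64 in sham (2.36 ± 0.84). In both genes Si replicate 3 was the highest and sham replicate 1 the lowest array, and the differences without that sham array were 2.18 and 1.78. The transmembrane mucin gene Muc13 differed by 1.97 ± 0.55, the retinoic acid binding protein gene Crabp1 by 1.34 ± 0.41 and the claudin gene Cldn8 by 1.30 ± 0.39. Rgs2, a brake on G protein signalling, differed by 1.14 ± 0.35 and Timp1, a metalloprotease inhibitor, by 1.01 ± 0.28. For Alx4, a homeobox gene (1.02 ± 0.30), 0 of the other 34 arrays exceeded the lowest Si array of week 4.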
